A study of Mus musculus with 4 samples.

Results

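The genes described here are 32 mouse genes of the endoplasmic reticulum (ER), the compartment where secreted and membrane proteins fold. They were chosen by name, as stress sensors, chaperones and folding enzymes, degradation genes and genes of protein entry into the ER, out of 18194 genes that the array measures. Each gene was represented by its probe set with a single gene symbol and the highest mean over 4 arrays. All 32 had such a probe set, and 31 were bright enough to test, a group that holds 10873 genes in all. These 31 reached the limit of 97.44 intensity units in both groups taken alone, so none passed through 1 group only. Derl3 lay below it. The cells were ILC2, the innate lymphoid cells of group 2, which are tissue lymphocytes that secrete type 2 cytokines. They came from mice of the C57BL/6 strain, and their transcripts were measured by Affymetrix microarray. The controls were 2 samples from littermates, and the other 2 samples came from mice with Ets1 deleted, each on 1 array. Both groups were ICOS+ cells kept in culture for 2 weeks over OP9-DL1, a stromal line that carries a Notch ligand, while IL-33 and IL-7 were supplied. The sources used here do not give the deleted part of Ets1, what drives the deletion or the age of the mice. Nothing says that the arrays are separate animals or cultures, so each p-value reflects only how far these samples spread, and that spread may be technical.

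Array medians lay between 96.5 and 97.7 intensity units. Ets1 itself, the check of the labels, read 1272 and 1231 intensity units in the controls and 138.1 and 180.2 in the Ets1-deleted arrays. Of 12 ILC2 markers 10 had a probe set and were tested. They differed between the groups: 6 were called higher and 2 lower (limma), with a median of 0.75. Among all tested genes 13.9% were called higher, against 60% of these markers. Thy1 (1.91), Rora (1.29), Il17rb (0.93), Il5 (0.83), Il2ra (0.81) and Il13 (0.69) were higher, and Klrg1 (-1.60) and Icos lower. Gata3 and Il7r, at 2742 to 3032 and 1880 to 2038 intensity units over the 4 arrays, were not called. Icos, whose protein was used for the sort, read 6293 and 6009 in the controls and 4549 and 4894 in the Ets1-deleted arrays (-0.38 ± 0.11, adjusted p = 0.0232 in limma). Differences below are Ets1-deleted minus control on the log2 scale, ± SE from limma, with n = 2 per group. That SE draws on a variance shared across genes, so it is not a gene's own spread between replicates. A gene is called where its p, adjusted over all 10873 genes by Benjamini-Hochberg, is under 0.05. With 2 arrays a group, no exact permutation test could reach that threshold.

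In the unfolded protein response, misfolded proteins in the ER draw the chaperone BiP away from sensors in its membrane. The sensor IRE1 then splices the mRNA of the transcription factor XBP1, ATF6 is cut free to enter the nucleus, and PERK slows translation while favouring the factor ATF4. XBP1 and ATF6 turn on chaperones, disulfide isomerases and the machinery that returns misfolded proteins to the cytosol for destruction. Cells that secrete much protein, such as plasma cells, rely on this pathway, and ILC2 secrete cytokines.

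ER folding genes were higher in the Ets1-deleted arrays as a group of small differences. Of the 31 tested members 13 rose and 0 fell (limma), against 13.9% higher and 12.8% lower over all tested genes. At an unadjusted p under 0.05 the counts were 16 and 0. The share of all tested genes at that threshold was not counted. Unadjusted counts, here and below, therefore cannot be set against the 13.9%. In bulk RNA such as this, fewer cells of a type and less RNA per cell cannot be told apart. On the brightest probe sets the largest differences were in the disulfide isomerase genes Pdia6 and P4hb and the ubiquitin ligase gene Syvn1, at 1.51- to 1.52-fold. That order depended on the probe set: with the mean over probe sets P4hb (0.60) and Hyou1 (0.58) were the highest, Syvn1 was at 0.41 and Pdia6 at 0.30, all 4 still called. The median difference of the tested members was 0.25, and that of all tested genes -0.0037. A positive difference was found in 26 of 31 members, against 49.3% of all tested genes. In 19 members both Ets1-deleted arrays lay above both controls, and in 4 both lay below, where all tested genes gave 30.9% and 31.7%. Groups that do not overlap are thus common with 2 arrays each. Where this is given for single genes below, it is description only. The arrays' own medians over the tested members, relative to the mean of the controls, were 0.02 and -0.02 in the controls and 0.30 and 0.22 in the Ets1-deleted arrays. The count of 13 moved with the arrays used, and was 9 without control 1, 6 without control 2, 7 without Ets1-deleted 1 and 14 without Ets1-deleted 2, where 11%, 11.2%, 12.1% and 13.5% of all tested genes were called higher. Pdia4, Pdia6, P4hb and Syvn1 were called with any 1 array left out. With each array's floor subtracted 5 members were called, against 12% of all genes tested there, and 3 were both called and at least 1.5-fold higher, against 7.06%. Without the filter on dim genes 11 members were called, against 8.52%, and at an adjusted p of 0.1 in limma 14, against 17.2%. With ordinary variances, not shared between genes, 0 members and 0.0644% of all genes were called.

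**Figure D1:**
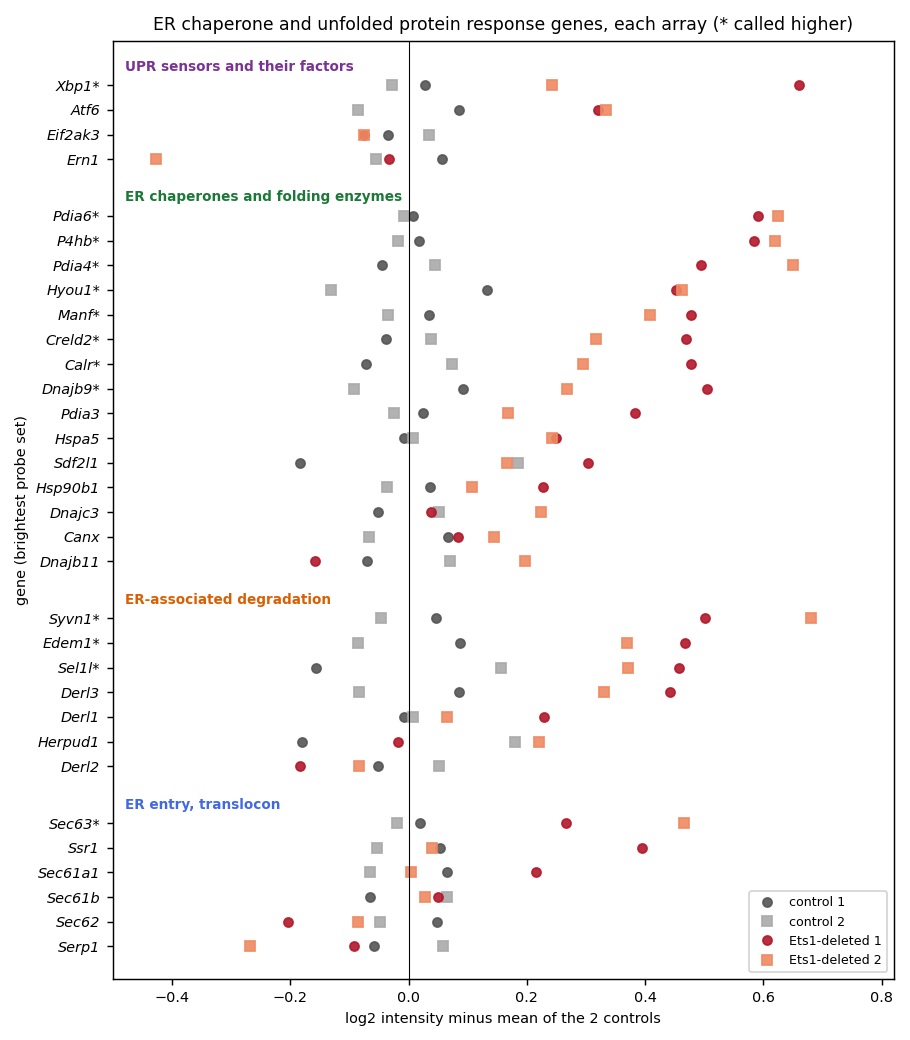
Level of each of the 32 genes on each array, as log2 intensity minus the mean of the 2 controls, grouped by role, with an asterisk at the 13 called genes. Among the chaperones the Ets1-deleted arrays (red and orange) lie mostly to the right of the controls (greys), and in the ER entry genes the 4 arrays are mixed.

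**Figure D2:**
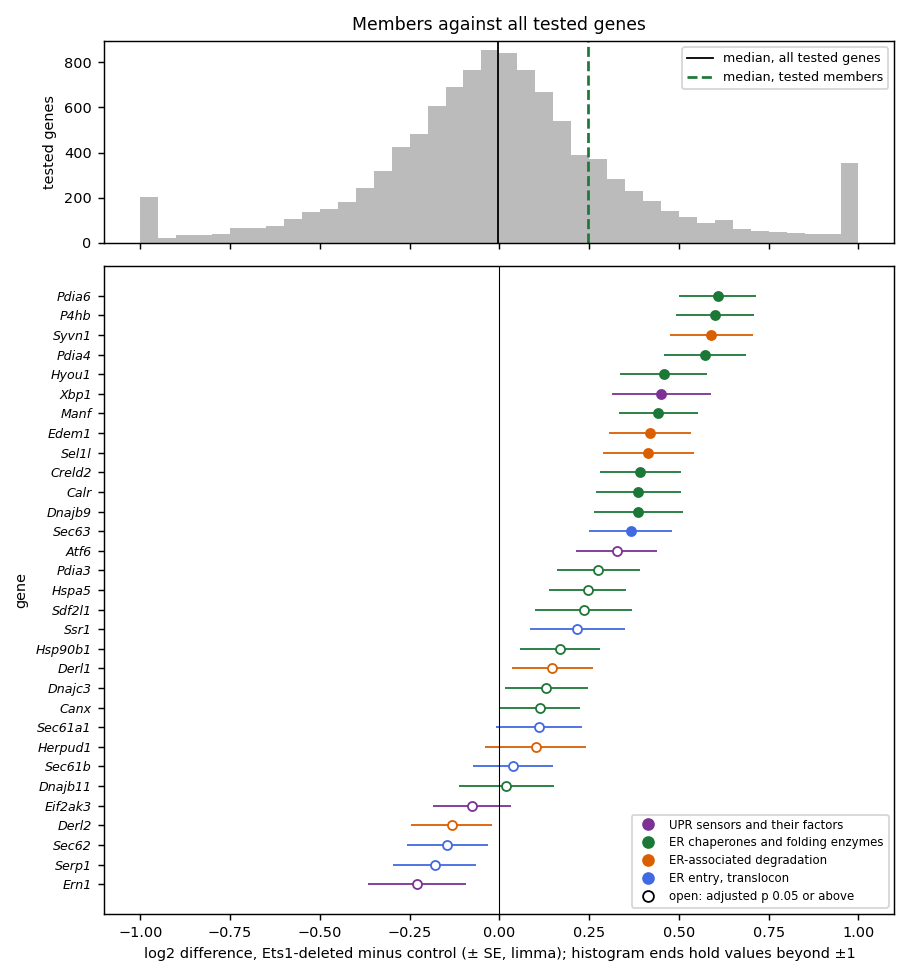
Top, histogram of the log2 difference of 10873 tested genes, with the median of all genes (-0.0037) and of the tested members (0.25), where genes beyond -1 or 1 are counted in the end bars. Bottom, each of the 31 tested members with its difference ± SE (limma, n = 2 per group), filled where called. The differences run from -0.23 for Ern1 to 0.61 for Pdia6.

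Of the 4 sensors and their factors Xbp1 rose, and the other 3 were not called (limma). Xbp1, whose product drives the chaperone genes, read 1096 and 1054 intensity units in the controls and 1698 and 1271 in the Ets1-deleted arrays. Both Ets1-deleted arrays were higher, the first far more than the second, and Xbp1 rose by 0.45 ± 0.14 (limma, adjusted p = 0.0303). The call was lost without control 2 (0.42, adjusted p = 0.0593 in limma) or without Ets1-deleted 1 (0.24, adjusted p = 0.229). Its 4 probe sets differed by 0.10 to 0.45, and their mean was not called (0.28, adjusted p = 0.0574 in limma). Splicing of Xbp1 was not measured. Atf6, for the sensor that is itself a transcription factor, read 1258 and 1119 in the controls and 1481 and 1495 in the Ets1-deleted arrays. The groups were apart, and the difference of 0.33 ± 0.11 just missed the threshold (limma, adjusted p = 0.0513). The mean over its 3 probe sets was called (0.35, adjusted p = 0.0127 in limma).

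Ern1, which encodes IRE1, and Eif2ak3, which encodes PERK, were the sensors with negative differences, and neither was called. Ern1 read 1237 and 1145 intensity units in the controls and 1163 and 884.5 in the Ets1-deleted arrays, a difference of -0.23 ± 0.14 (limma, adjusted p = 0.251). Its groups overlapped, and without Ets1-deleted 1 the difference was -0.43 and called lower (limma, adjusted p = 0.0324). Eif2ak3 read 312 and 327.3 in the controls and 303.4 on both Ets1-deleted arrays, a difference of -0.08 ± 0.11. In the sensors list 1 of 4 rose (25%, against 13.9% of all tested genes) and 0 fell, with a median of 0.13. By unadjusted p the counts were 2 and 0.

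Among 15 chaperones and folding enzymes 8 rose (53.3%, against 13.9% of all tested genes) and 0 fell (limma). All 15 differences were positive, from 0.02 to 0.61 with a median of 0.39. At an unadjusted p under 0.05 the counts were 10 and 0. The disulfide isomerases form and reshuffle disulfide bonds in folding proteins. Pdia6 read 1049 and 1039 intensity units in the controls and 1572 and 1610.2 in the Ets1-deleted arrays, a rise of 0.61 ± 0.11 (limma, adjusted p = 0.00123). P4hb, the founding disulfide isomerase, read 2107 and 2055 in the controls and 3118 and 3195.5 in the Ets1-deleted arrays, a rise of 0.60 ± 0.11 (limma, adjusted p = 0.00137). Pdia4 went from 1138 and 1210.4 to 1654 and 1841, a rise of 0.57 ± 0.11. In these 3 genes the replicates of a group lay close together and the groups far apart. The other probe sets of Pdia6 (0.0021) and Pdia4 (0.08) were too dim to test, and with the mean over probe sets both remained called at 0.30 and 0.32 (limma, adjusted p = 0.0179 and 0.038). Pdia3, which works on glycoproteins with calreticulin and calnexin, read 2518 and 2437 in the controls and 3230.1 and 2784 in the Ets1-deleted arrays. Its groups did not overlap either, and the difference of 0.28 ± 0.12 was not called (limma, adjusted p = 0.105), except without Ets1-deleted 2 (0.38, adjusted p = 0.0489). With the mean over its probe sets it differed by 0.09.

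Partners of BiP and ER stress-induced secreted factors rose as well. Hyou1, which recharges BiP with nucleotide, read 1724 and 1436 intensity units in the controls and 2153 and 2166.2 in the Ets1-deleted arrays, a rise of 0.46 ± 0.12. Manf, a small ER protein that is released under stress, read 1952 and 1861 against 2655 and 2529, a rise of 0.44 ± 0.11. Creld2, another stress-induced ER protein, read 1228 and 1296 against 1745 and 1571, a rise of 0.39 ± 0.11. The lowest Ets1-deleted value of each of the 3 genes was above its highest control, as in 30.9% of all tested genes. Dnajb9, a J-protein that hands substrates to BiP, read 613.3 and 539.2 against 816.1 and 692.3 (0.39 ± 0.12). Calr, for the lectin chaperone calreticulin, read 2912 and 3221 against 4265 and 3759 (0.39 ± 0.12). Adjusted p in limma lay between 0.01 and 0.0376 for these 5 genes. Each lost its call without 1 array or another: Hyou1 (0.33, adjusted p = 0.183), Manf (0.41, 0.0713), Dnajb9 (0.29, 0.245) and Creld2 (0.43, 0.0532) without control 2 in limma. Without control 1 the calls of Calr (0.31, adjusted p = 0.197 in limma) and Creld2 (0.35, 0.133) were lost, and without Ets1-deleted 1 those of Calr (0.30, 0.147), Creld2 (0.32, 0.112) and Dnajb9 (0.27, 0.2).

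The genes of BiP, the ER HSP90 and calnexin were not called on their brightest probe sets. Hspa5, which encodes BiP, read 4223 and 4273 intensity units in the controls and 5048 and 5026 in the Ets1-deleted arrays. The replicates were nearly equal and the groups were apart, yet the difference was small, 0.25 ± 0.11 (limma, adjusted p = 0.117). With ordinary variances, not shared between genes, the SE of Hspa5 was 0.0089, and it was again not called (adjusted p = 0.0776). Hsp90b1, the ER form of HSP90, read 3144 and 2991 against 3591 and 3305, a difference of 0.17 ± 0.11 with no overlap. Canx, for calnexin, read 1980.3 and 1806.5 against 2005 and 2089.9 (0.11 ± 0.11). Sdf2l1 (0.24 ± 0.13), Dnajc3 (0.13 ± 0.12) and Dnajb11 (0.02 ± 0.13) overlapped between the groups. Sdf2l1 and Dnajb11 act together as helpers of BiP, and Dnajc3 is a co-chaperone that also restrains PERK. Dnajb11 read 2961 and 3262 in the controls and 2787 and 3562 in the Ets1-deleted arrays, so the latter held both its lowest and its highest value.

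In ER-associated degradation, which pulls misfolded proteins back into the cytosol, the core ligase rose. Syvn1 encodes HRD1, the ubiquitin ligase in the ER membrane, and read 382 and 358.3 intensity units in the controls and 523.4 and 592.8 in the Ets1-deleted arrays. The rise was 0.59 ± 0.12 (limma, adjusted p = 0.00238). Its partner Sel1l read 547.6 and 680.5 against 837.9 and 789.5, a rise of 0.41 ± 0.13 (limma, adjusted p = 0.0302). Edem1, which marks misfolded glycoproteins for removal by trimming mannose, read 1487 and 1319.8 against 1938 and 1811, a rise of 0.42 ± 0.12 (limma, adjusted p = 0.0179). None of the 3 overlapped between the groups, though the controls of Sel1l were spread. Among all tested genes 30.9% were higher on both Ets1-deleted arrays than on both controls. The Sel1l call was lost without control 1 (0.26, adjusted p = 0.319 in limma) or Ets1-deleted 1 (0.37, 0.0927), and its mean over probe sets was 0.27, still called. The call was lost for Edem1 without control 2 (0.33, adjusted p = 0.169 in limma) or Ets1-deleted 1 (0.37, 0.0699).

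The derlins, channel proteins of the same pathway, went different ways on their brightest probe sets. Derl1 read 1441 and 1457 intensity units in the controls and 1698 and 1517 in the Ets1-deleted arrays (0.15 ± 0.11), and Derl2 read 894.6 and 959.9 against 816.3 and 874.6 (-0.13 ± 0.11). Neither was called, at adjusted p of 0.384 and 0.429 in limma. Derl3, known from plasma cells and other secretory cells, read 76 and 67.6 against 97.4 and 90.1, too dim to test. Herpud1, a scaffold of the ligase complex, read 925.8 and 1189 against 1036 and 1222, with overlap and a difference of 0.10 ± 0.14. Of the 6 tested degradation genes 3 rose (50%, against 13.9% of all tested genes) and 0 fell, with a median of 0.28. Unadjusted p gave 3 and 0 too.

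The genes of protein entry into the ER had the lowest median of the 4 roles, 0.07. Here 1 of 6 rose (16.7%, close to the 13.9% of all tested genes) and 0 fell. Unadjusted p gave the same counts. Sec63, which recruits BiP to the channel, read 593.9 and 578.4 intensity units in the controls and 704.9 and 809 in the Ets1-deleted arrays, a rise of 0.37 ± 0.12 (limma, adjusted p = 0.0345). It was not called without control 1 (0.38, adjusted p = 0.0937 in limma), control 2 (0.35, 0.147) or Ets1-deleted 2 (0.27, 0.174), nor with the mean over its probe sets (0.26, 0.0539). The channel genes Sec61a1 (0.11 ± 0.12) and Sec61b (0.04 ± 0.11) overlapped between the groups. Ssr1, a subunit of the translocon-associated complex, read 2326 and 2160.4 against 2948 and 2303 (0.22 ± 0.13), with the second Ets1-deleted array inside the range of the controls. Without that array Ssr1 was called (0.40, adjusted p = 0.0446 in limma), and without Ets1-deleted 1 it differed by 0.04. Sec62 (-0.14 ± 0.11) and Serp1 (-0.18 ± 0.12), which protects membrane proteins during stress, were lower on both Ets1-deleted arrays and not called.

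Other probe sets of the same genes were read as well. The members have 87 probe sets with a single symbol, of which 82 were bright enough, and 21 of these were called higher and 0 lower in a fit over all 19845 bright probe sets (limma), where 12.8% were higher and 11.3% lower. Counting any probe set, 18 members rose, the 13 above and Atf6, Hspa5, Herpud1, Derl1 and Ssr1. Over all tested genes 1756 rose when counted this way. A gene with more probe sets has more chances to be called, and this was not corrected for. The 12.8% is a share of probe sets, so the 18 members cannot be set against it. The second Hspa5 probe set read 2489.8 and 2366 intensity units in the controls and 3338 and 3058 in the Ets1-deleted arrays, a rise of 0.40 ± 0.11 (limma, adjusted p = 0.0235 over probe sets). For Derl1 the other probe sets gave 0.58, 0.50 and 0.09, the first 2 called, beside 0.15 on the brightest. The second Herpud1 probe set rose by 0.55, and a Ssr1 probe set by 0.63. All 3 Hyou1 probe sets were called, at 0.43, 0.46 and 0.84. Of 22 members with more than 1 bright probe set, 15 had differences of 1 sign and 7 of both signs, among them Dnajc3, from -0.34 to 0.27. With the mean over probe sets 15 members were called, where 15.3% of all tested genes were called higher. Among them were Hspa5 (0.31, adjusted p = 0.0204 in limma), Herpud1 (0.32, 0.0204), Derl1 (0.33, 0.0197) and Ssr1 (0.29, 0.0255). Calr was not called there (0.41, adjusted p = 0.0503 in limma).

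**Figure D3:**
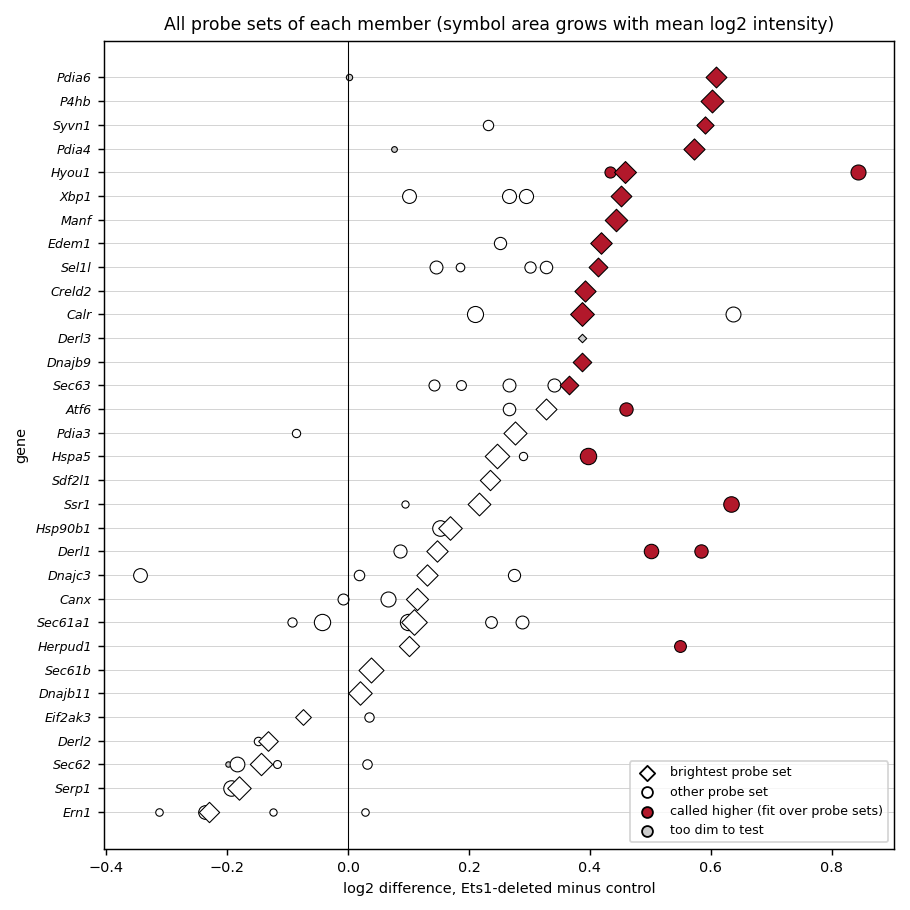
Log2 difference, Ets1-deleted minus control, of all 87 probe sets of the 32 genes, with the brightest as a diamond and red where called in the fit over probe sets. For Hspa5, Derl1, Herpud1, Ssr1 and Atf6 a dimmer probe set is called and the brightest is not.

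Promoters of the members were read next, because many ER stress genes are known to share a control sequence. The ER stress response element (ERSE) is CCAAT, then 9 bases of any kind, then CCACG, in which CCAAT is bound by NF-Y and CCACG by ATF6 or XBP1. It was first defined in promoters of Hspa5, Hsp90b1 and Calr, so its presence there is background and not a result. RefSeq promoters (GRCm38.p6, 250 bases before to 50 after the start) were matched by symbol for 27 of the 32 members. An exact ERSE on either strand was found in 9 of the 27 (33.3%) and in 37 of 27025 genes of the table (0.137%). Those 9 include Hspa5, Hsp90b1 and Calr, and the members were chosen by name as ER genes. The contrast thus describes the list and is not a test. The chaperones held 7 of the 9, and degradation genes the other 2, Syvn1 and Derl3. The sites are printed with their GRCm38.p6 coordinates, 5′ to 3′ in the reading direction of the element with 10 bases on either side, its fixed letters in capitals, to show how the spacer varies between genes that rose and genes that were not called. The first 4 genes rose, and the last 4 were not called on their brightest probe sets.
Pdia6 (chr12:17266481-17266519, + strand): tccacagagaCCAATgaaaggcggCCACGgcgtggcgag
Syvn1 (chr19:6046522-6046560, + strand): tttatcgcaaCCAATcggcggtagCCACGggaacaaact
Creld2 (chr15:88819510-88819548, - strand): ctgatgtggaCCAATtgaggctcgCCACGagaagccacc
Calr (chr8:84847065-84847103, + strand): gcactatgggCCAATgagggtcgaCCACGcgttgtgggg
Hspa5 (chr2:34772015-34772053, + strand): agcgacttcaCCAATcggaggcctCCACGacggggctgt
Hsp90b1 (chr10:86705523-86705561, + strand): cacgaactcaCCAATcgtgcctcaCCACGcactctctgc
Dnajc3 (chr14:118937817-118937855, + strand): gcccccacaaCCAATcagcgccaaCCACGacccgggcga
Canx (chr11:50325790-50325828, - strand): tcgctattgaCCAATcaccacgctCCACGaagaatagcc

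Hsp90b1 holds a second copy farther from its start. For context, the 150 bases before the start of Hspa5 are shown (GRCm38.p6, chr2:34771940-34772089, + strand), with the exact element in capitals between 47 and 65 bases before the start.
Hspa5: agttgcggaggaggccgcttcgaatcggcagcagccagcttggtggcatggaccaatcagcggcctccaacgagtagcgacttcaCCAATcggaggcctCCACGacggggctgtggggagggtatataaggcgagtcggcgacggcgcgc

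Of the 8 tested members with an exact ERSE 4 rose, with differences from 0.11 to 0.61 and a median of 0.32. Of 18 tested members with a promoter and no exact ERSE 7 rose, with differences from -0.23 to 0.60 and a median of 0.23. Both sets thus held genes that rose and genes that were not called. In the further lists described below only Ero1b held an exact ERSE, and it fell (-0.66, adjusted p = 0.000681 in limma). Pdia4 and P4hb, which rose as far as Pdia6, have no exact copy in these windows. The shorter form ERSE-II, which is ATTGG, 1 base of any kind and CCACG, was found in Herpud1 and Dnajb11, in the latter past the start. That is 7.41% of members against 0.0444% of all genes, again for members chosen by name, and it was not tested.
Herpud1 (chr8:94386367-94386397, + strand): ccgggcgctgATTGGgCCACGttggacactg
In the line for Herpud1 the capitals mark that element. The element UPRE, letters TGACGTGG, was in 0 of the 27 members and in 0.714% of all genes. The core TGACGT, which lies inside UPRE, was in Hspa5, Canx and Dnajb11 (11.1%, against 8.37%). The ATF4 site TGATGNAA was in Herpud1 alone (3.7%, against 4.51%), while 5 of the 11 promoters matched for genes listed as downstream of PERK held it. An ETS site, CCGGAAGT, the kind of sequence that ETS1 binds, was in P4hb alone, 3.7% of members against 4.31% of all genes. Each motif was searched on both strands, and a match describes letters, not binding.

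**Figure D4:**
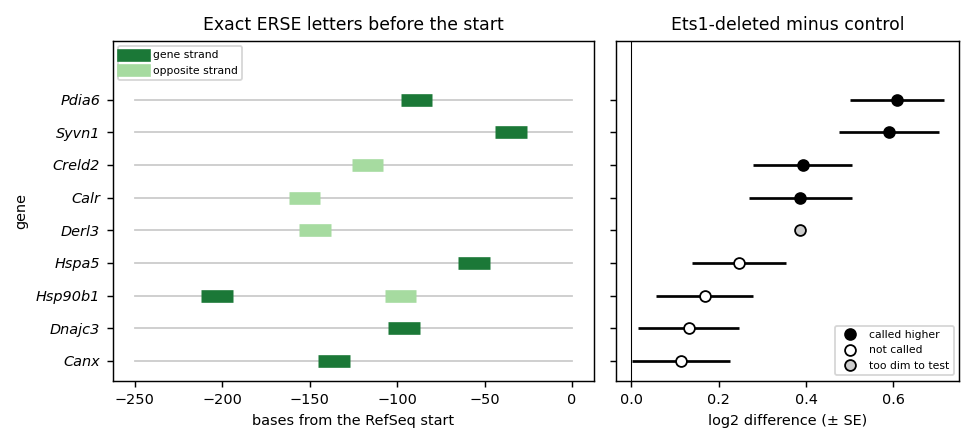
Left, position of each exact ERSE in the 9 members that have one, in bases from the RefSeq start, dark where it reads along the gene and light where it reads against it. Right, log2 difference ± SE of the same genes (limma, n = 2 per group), filled black where called. Dnajc3 and Pdia6 hold the element at similar distances, and their differences are 0.13 and 0.61.

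The genes listed as downstream of PERK gave larger differences, which were not tested against those of the members. Whether PERK was behind these differences was not tested. Of 10 tested genes of the ATF4 and CHOP branch 6 rose (60%, against 13.9% of all tested genes) and 0 fell, with a median of 0.84. By unadjusted p the counts were 7 and 0. Atf4, the factor of this branch, read 2118 and 2115 intensity units in the controls and 3962 and 3222 in the Ets1-deleted arrays, a rise of 0.76 ± 0.12 on its brightest probe set, where the weakest of its 3 gave 0.12 and the lowest value over the settings run was 0.48. Ero1a, the oxidase that recharges disulfide isomerases, read 2322 and 2481 against 6024 and 5039, a rise of 1.20 ± 0.12 (limma, adjusted p = 1.57e-05). Both Ets1-deleted arrays were far above both controls. Asns, for asparagine synthetase, rose by 0.92 ± 0.11, the pseudokinase gene Trib3 by 1.48 ± 0.12, Chac1 by 1.88 ± 0.13 and the stress gene Nupr1 by 2.39 ± 0.13. These 6 were called with any 1 array left out, at adjusted p of up to 0.00332 in limma. Ddit3, which encodes CHOP, read 342.9 and 400.7 in the controls and 384.8 and 383.4 in the Ets1-deleted arrays, with both of the latter inside the range of the controls (0.05 ± 0.12, adjusted p = 0.797 in limma). Ppp1r15a, the phosphatase subunit GADD34 that reverses the action of PERK, differed by 0.17 ± 0.11. Both were singled out after their values were seen.

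Among 21 other ER folding enzymes 6 rose (28.6%, against 13.9% of all tested genes) and 2 fell, with a median of 0.16. Pdia5 (0.65 ± 0.11), Erp29 (0.57), Mogs, which trims glucose from glycans (0.53), Dnajc1 (0.52), Sil1, a second nucleotide exchange factor of BiP (0.48), and Sdf2 (0.38) rose. Ero1b, the relative of Ero1a, fell by 0.66 ± 0.11, and read 518.7 and 544.2 intensity units in the controls and 334.6 and 336 in the Ets1-deleted arrays. Its other bright probe set gave -0.18, and its smallest difference over the settings run was -0.35, still called. Uggt1, which tags glycoproteins that have not folded, fell by 0.66 ± 0.11, but its other bright probe set gave 0.21 and the mean over probe sets was not called (-0.17, adjusted p = 0.138 in limma). Dnajc1 likewise had bright probe sets down to -0.14 and a mean of 0.16 (adjusted p = 0.157 in limma). Without control 1 the calls of Sil1 (0.32, adjusted p = 0.18 in limma) and Sdf2 (0.33, 0.166) were lost, and without control 2 those of Dnajc1 (0.40, 0.0757) and Sdf2 (0.43, 0.0538). Without Ets1-deleted 1 Sdf2 (0.34, adjusted p = 0.0916 in limma) was lost, and without Ets1-deleted 2 Sil1 (0.38, 0.0776) and Dnajc1 (0.37, 0.0728).

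Of 21 other degradation genes 4 rose (19%, against 13.9% of all tested genes) and 1 fell, with a median of 0.12. Ngly1, which strips glycans from proteins that reach the cytosol, rose most, with 477.9 and 409.6 intensity units in the controls against 1015 and 913.2 in the Ets1-deleted arrays (1.12 ± 0.12, adjusted p = 2.67e-05 in limma). The mannosidase-like genes Edem3 (0.63) and Edem2 (0.44) and the lectin gene Os9 (0.40) rose, and the ubiquitin ligase gene Rnf139 fell by 0.57 ± 0.12. The calls of Os9 (0.33, adjusted p = 0.166 in limma) and Edem2 (0.43, 0.0539) were lost without control 1, and also without Ets1-deleted 1 (0.29, 0.156 and 0.35, 0.0728). With the mean over probe sets Edem2 differed by 0.13 (adjusted p = 0.342 in limma). In the wider entry machinery, with signal peptide and glycan transfer genes, 4 of 27 rose and 0 fell, with a median of 0.19. That is 14.8% higher, close to the 13.9% of all tested genes, and unadjusted p gave 11 and 0. The 4 called were Ssr2 (0.66 ± 0.15) and 3 genes of the enzyme that attaches glycans, Stt3b (0.52), Rpn1 (0.44) and Tusc3 (0.35). Without control 1 Stt3b (0.42, adjusted p = 0.0595 in limma), Rpn1 (0.43, 0.0549) and Tusc3 (0.35, 0.136) were lost. Tusc3 was also lost without control 2 (0.35, adjusted p = 0.146 in limma) and without Ets1-deleted 1 (0.30, 0.125).

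Stress transducers related to the sensors gave 1 rise and 1 fall among 8 tested (12.5% higher, close to the 13.9% of all tested genes). Creb3l1, a membrane-bound relative of ATF6, fell, with 256.8 and 243.1 intensity units in the controls against 131.2 and 151.6 in the Ets1-deleted arrays, a difference of -0.83 ± 0.12 (limma, adjusted p = 0.000232). Mbtps2, a protease that frees ATF6 from the membrane, rose by 0.38 ± 0.11, a call lost without control 2 (0.31, adjusted p = 0.221 in limma) or Ets1-deleted 2 (0.36, 0.0694). Chaperones outside the ER were read for comparison. Of 20 tested in the cytosol and mitochondria 3 rose (15%, close to the 13.9% of all tested genes) and 1 fell, with a median of 0.07. The rises were in Hspa4 (0.80 ± 0.11) and Hspa4l (0.72 ± 0.14), exchange factors of HSP70, and in the mitochondrial HSP70 gene Hspa9 (0.59 ± 0.11). Hsph1 of the same exchange factor family fell by 0.37 ± 0.12. Hsph1 was no longer called without control 2 (-0.24, adjusted p = 0.38 in limma), Ets1-deleted 1 (-0.33, 0.122) or Ets1-deleted 2 (-0.41, 0.0508). Weaker bright probe sets gave 0.11 for Hspa4 and -0.0032 for Hspa9. The difference between the ER list and these lists was not tested.

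**Figure D5:**
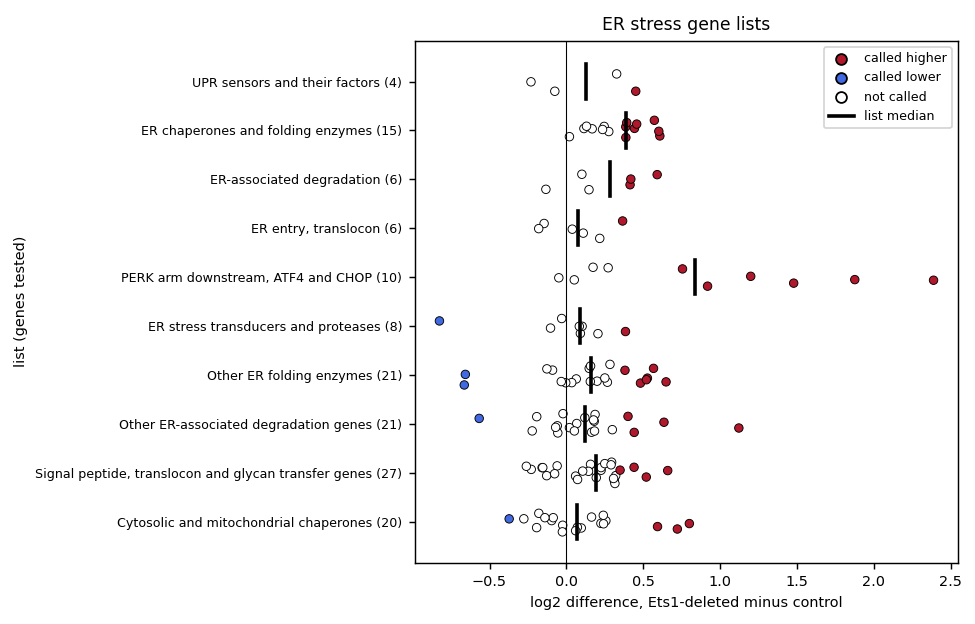
Log2 difference, Ets1-deleted minus control, of each tested gene in the 4 member roles and 6 further lists, with called genes in red (higher) or blue (lower) and a bar at each list's median. The median is 0.39 for the chaperones, 0.84 for the genes listed as downstream of PERK and 0.07 for chaperones outside the ER.

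Markers of other cell types were read beside the members. Against 13.9% of all tested genes, the shares called higher were 75% for mast cell and basophil genes and 83.3% for T cell genes. They were 50% for plasma cell, 100% for myeloid and 12.5% for OP9 stroma genes. Of plasma cell genes, 9 of 10 had a probe set and 4 were tested, and 2 rose, Xbp1, which is a member, and Sdc1, with 112.8 and 111.8 intensity units in the controls and 217 and 220.7 in the Ets1-deleted arrays. The other 2 tested, Prdm1 (-0.21) and Ighm (-0.17), had negative differences and were not called. The defining genes Jchain, Tnfrsf17, Mzb1 and Pou2af1 lay between 56.3 and 95.9 on all 4 arrays, below the limit for testing. The summed intensity of the 9 genes, Xbp1 included, was 2257 and 2300 in the controls and 2912 and 2538 in the Ets1-deleted arrays. Mast cell and basophil genes rose in 6 of 8 tested, and their summed intensity over 12 genes was 2510 and 2522 in the controls against 4799 and 4444 in the Ets1-deleted arrays. Cpa3 rose by 4.07, with 85.9 and 78.3 intensity units against 1497 and 1261, Csf2rb by 2.34, Mcpt2 by 1.39, Mcpt1 by 0.64, Kit by 0.55 and Hdc by 0.38. Mcpt8 (-0.25) and Tpsb2 (0.06) were not called, and Mcpt4, Ms4a2, Fcer1a and Tpsab1 were too dim to test, the last 2 between 55.1 and 70.3 on all 4 arrays. T cell genes rose in 5 of 6 tested, with sums of 2728 and 2776 against 6272 and 6303 over 10 genes. Cd3e rose by 3.28, with 102.8 and 81.6 intensity units against 803.3 and 991.5, Cd247 by 3.11, Cd3d by 2.58, Cd28 by 2.18 and Cd3g by 0.50, while Cd6 (0.16) was not called. Cd4, Cd8a, Cd8b1 and Cd5 were too dim to test. Of the tested mast cell genes 5, and of the tested T cell genes 4, were over the limit in both groups. In the controls Cpa3, Hdc and Tpsb2 were under it, as were Cd3e and Cd6. These genes entered the counts only through the Ets1-deleted arrays, so the rises of Cpa3, Hdc and Cd3e are description only. Myeloid genes rose in 8 of 8 tested, from 0.36 for Mpo to 1.51 for Ctsg, with sums of 2202 and 2406 against 4026 and 4043 over 12 genes. Elane, Itgam, Cd14 and Ly86 were too dim to test. OP9 stroma genes gave 1 rise (Timp3, 2.55) and 1 fall (Pdgfrb, -0.85) among 8, with a median of -0.215. In 5 of the 8 both Ets1-deleted arrays lay below both controls, against 31.7% of all tested genes, and in 1 above. Sums over 12 genes were 11390 and 9978 in the controls against 10990 and 11090. Vim alone made 8499 and 7309 of the control sums and 7933 and 8066 of the others. Whether these transcripts came from other cell types or from the ILC2 was not tested. The part of either in the differences of the ER genes was not tested.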

How the data were processed

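RNA of 4 samples, 2 per group, was hybridised to 1 Affymetrix array each. The authors deposited linear intensity values per probe set, made with RMA per the submitters' processing notes, where no version is given. The linear scale was inferred from the values, 39.47 to 23291.29 intensity units. Of 45101 probe sets 34958 carried 1 gene symbol in the platform annotation, and those with several (932) or none listed (9211) were not used for genes. The values were put on the log2 scale. Genes were tested when the mean of their brightest probe set reached the median of all probe sets, 97.44. Limma 3.58.1 in R 4.3.3 (lmFit and eBayes, 2 residual degrees of freedom, prior 9.75) compared the groups with no covariate. The fit was tested on simulated data with the same number of arrays. It called 35% of the genes given a log2 difference of 0.5 in size, and 100% of those given 1 or 2. A gene that was not called may thus still differ by such small amounts. The number of arrays limits the precision.

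All members could be named, and from each further ER or chaperone list the called genes and the 3 of smallest p. Markers of cell types were described by list, and those named were picked after their values were seen. The members and lists were chosen with earlier results of these data known. Alternatives covered normalization, filter, probe set choice, array floor, replicate block, variance, threshold and each array left out. Promoters were RefSeq's. Protein sequences were not used here.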

Additional observations from a re-analysis of the deposited data

How the results depend on the processing

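The member median of 0.25 was 0.28 with the mean over probe sets, 0.21 with each probe set on its own, and 0.22 to 0.30 with 1 array left out. The 13 members called higher became 5 with the array floor subtracted, where 12% of all genes were called higher. They became 3 with a 1.5-fold limit (7.06%) and 0 with ordinary variances in limma (0.0644%). At an unadjusted p under 0.05 ordinary variances gave 7 higher and 0 lower, and the share of all genes was not counted. With 1 array left out, 6 to 14 members were called higher and 0 to 1 lower. Over all genes, 1512 were called higher and 1388 lower, against 7 and 6 with ordinary variances, 768 and 581 with the 1.5-fold limit, and 1199 to 1465 and 1020 to 1271 with 1 array left out. Fewer samples and shared or unshared variances are part of how these alternatives are built, and for the array floor the cause was not tested. Beside the share of all genes called higher, repeated quantile normalization gave 13 members (13.6%), median centring 14 (14.8%) and no filter 11 (8.52%). A stricter filter gave 14 (14.2%), a variance trend 14 (14%), robust variances 13 (14%) and the mean over probe sets 15 (15.3%). Any probe set gave 18, where 1756 genes rose. Ranking and filtering on linear means, chosen after seeing the data, gave 13 (14%). Direction reversed for Dnajb11 with repeated quantile normalization (-0.0059). It also reversed with 1 array left out for Dnajb11 (-0.16 to 0.20), Herpud1 (-0.080 to 0.28) and Sec61b (-0.027 to 0.10). The replicate numbers are not known to pair the arrays: deviations of same-numbered arrays correlated at r = 0.167 across genes. With the replicate number as a block, 1689 genes (15.5%) were higher and 1563 lower, 14 members were called, and the member median was 0.25. With 2 arrays a group, differences the size of most members' lie near or below the limit of what was called.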
